A study of Nothobranchius furzeri with 10 samples.

Results

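In skin of the turquoise killifish Nothobranchius furzeri, 192 genes had a lower normalised read count in each of 5 rotenone libraries than in any of 5 DMSO libraries, out of 18435 genes with enough reads to be tested. They were chosen by that lack of overlap: the highest rotenone value, as TMM-scaled log2 CPM (reads relative to the scaled library total) with a prior count of 2, had to lie below the lowest DMSO value. The set therefore makes up 1.04% of the tested genes, against 135 genes (0.732%) that met the mirror-image rule and were higher in every rotenone library. Because the groups chose the members, their fold changes and p-values are given as descriptions and support nothing further.

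All libraries came from skin of males of the strain MZM-0410p aged 27 weeks. The 5 rotenone libraries were from fish treated with rotenone at 15 pM, and the 5 DMSO libraries were from fish given the solvent alone. The labels state no treatment length, route or pairing of fish, and nothing says that the libraries came from separate fish, so the spread between them may be technical. The deposited identifiers carry no gene names, and 0 of 26739 matched the RefSeq gene table of assembly NfurGRZ-RIMD1. The labelled tissue could thus not be checked against skin markers, nor any known gene function attached, and at most 2 members are identified by their deposited identifier.

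Rotenone is a plant-derived inhibitor of mitochondrial complex I, the enzyme that passes electrons from NADH into the respiratory chain. Skin of bony fish is a layered, living epidermis with mucus-secreting cells over a dermis that holds scales, pigment cells, vessels and nerves. A bulk library averages all of these cells, so fewer cells of a type and less RNA per cell cannot be told apart in any value given here.

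Total counts ran from 21415012 to 42253397 in DMSO libraries and from 18801139 to 33406901 in rotenone libraries. DMSO replicate 2 stood apart from the other 4 DMSO libraries on the first principal component of all tested genes, with a score of 86.2 against -48.6 to -25.8. Rotenone replicates 3, 4 and 5 also had positive scores (24.0 to 58.5), while rotenone replicates 1 and 2 lay among the remaining DMSO libraries. No library was left out, and each was left out in turn as a check.

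The members together gave a similar total within each group and a smaller one in rotenone skin. Their summed normalised read count was 13018, 12103, 12275, 11630 and 13089 CPM in DMSO replicates 1 to 5. It was 7355, 6696, 6493, 7111 and 8308 CPM in rotenone replicates 1 to 5. The lowest sums were in rotenone replicates 2 and 3 and the highest rotenone sum was in replicate 5. Group means were 12423 ± 623 CPM and 7193 ± 710 CPM (SD, n = 5 each), so the rotenone mean was 0.579 of the DMSO mean. As a share of raw reads, before any scaling, the members held 1.18% to 1.42% of DMSO libraries and 0.609% to 0.760% of rotenone libraries. The ratio barely rested on the member with most reads, since it was 0.579 without that gene as well. Without DMSO replicate 2, or any other library, it stayed between 0.553 and 0.593. The rule puts every member lower in rotenone, so a ratio below 1 was set in advance and these ratios are descriptions.

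**Figure D1:**
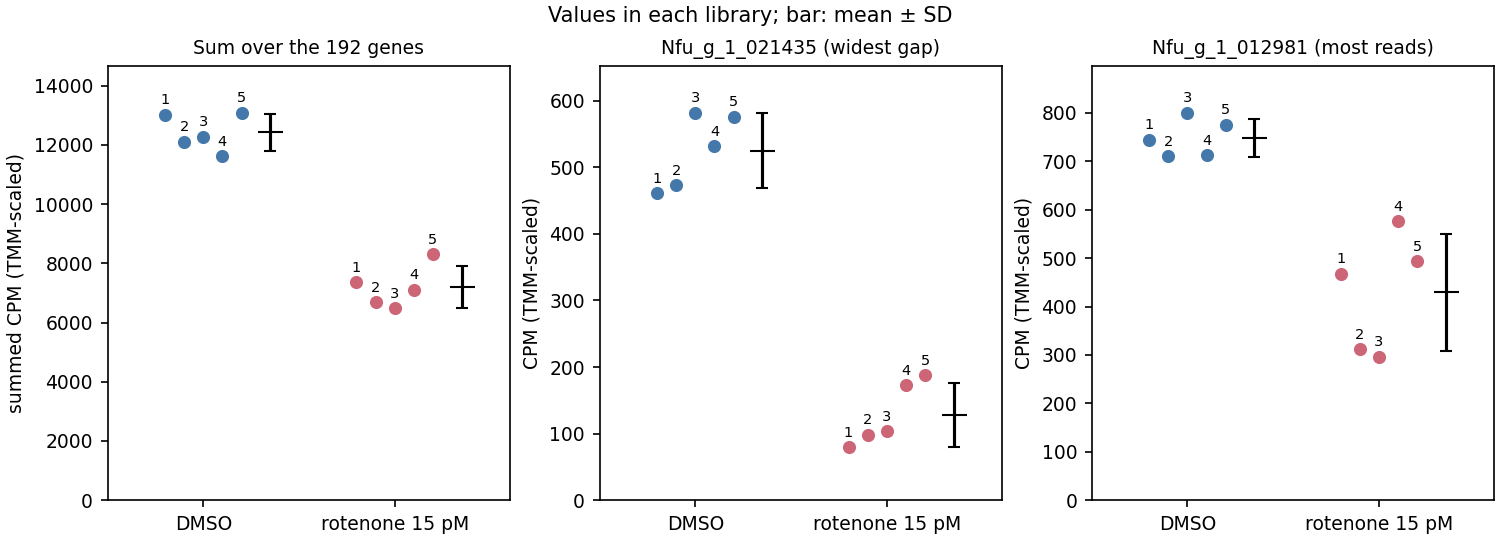
Points are single libraries, numbered by replicate, and bars beside them are the mean ± SD of 5 libraries; the y axes are TMM-scaled CPM, summed over the 192 genes on the left. The summed value lies between 11630 and 13089 CPM in DMSO libraries and between 6493 and 8308 CPM in rotenone libraries.

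Most members were moderately lower in rotenone skin. Their edgeR log2 fold change (rotenone minus DMSO) had a median of -0.73, with the middle 50% of members between -1.01 and -0.50, where all tested genes had a median of 0.03. Expressed as a ratio, the median member was 1.66-fold lower, and the range ran from 1.07-fold to 6.34-fold. A log2 fold change of -1 or lower was found in 50 members (26.0%), beside 204 of all tested genes (1.11%). Only 4 members reached -2 or lower. The lowest log2 fold change was -2.66 among members and -6.76 among all tested genes. At the other end, 11 members were less than 1.2-fold lower. Neither of these counts was made over all tested genes.

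The member with the widest gap between the groups was Nfu_g_1_021435, a gene of 3412 bases as recovered from the deposited tables. It had 461, 473, 582, 531 and 576 CPM in DMSO replicates 1 to 5, and 79.6, 98.2, 103, 173 and 187 CPM in rotenone replicates 1 to 5. Rotenone replicates 4 and 5 were the highest of their group, yet the lowest DMSO library stood 1.30 log2 units above the highest of them. It was 4.09-fold lower in rotenone (log2 fold change -2.03 ± 0.25, SE), with an edgeR quasi-likelihood adjusted p of 0.078 over all tested genes. Between 1746 and 21212 reads per library lay behind these values. Over the alternative fits its adjusted p ran from 3.15e-12 with DESeq2 to 0.22, and it also passed 0.05 in edgeR with library size as the only scaling (adjusted p = 0.012).

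The member with most reads was Nfu_g_1_012981, of 5430 bases. Its values in DMSO replicates 1 to 5 were 745, 711, 800, 712 and 776 CPM. In rotenone replicates 1 to 5 they were 467, 312, 296, 576 and 493 CPM. The DMSO libraries lay close together, whereas the rotenone libraries split, with replicates 2 and 3 lowest and replicate 4 nearest to the DMSO range. The group means were 749 ± 39.2 CPM and 429 ± 121 CPM (SD, n = 5 each), a log2 fold change of -0.80 ± 0.19 (SE) with an edgeR adjusted p of 0.24. DESeq2 gave this gene an adjusted p of 0.0063, the lowest over the alternative fits, and the highest was 0.45.

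Several members without a name show how differently the rule could be met. The largest fold change, 6.34-fold, belonged to a gene with 15.0, 85.7, 20.3, 13.7 and 34.7 CPM in DMSO replicates 1 to 5 and 1.82, 3.49, 8.55, 6.63 and 6.18 CPM in rotenone replicates 1 to 5. Its DMSO mean leaned on replicate 2, the library that stood apart on the first component, and its edgeR adjusted p was 0.23. The member ranked sixth by reads had 621, 684, 405, 422 and 601 CPM in DMSO and 224, 110, 132, 200 and 253 CPM in rotenone libraries. Here both groups varied by more than 1.5-fold inside themselves and were still 0.675 log2 units apart. By contrast, the member ranked seventh by reads held 275 to 294 CPM in DMSO libraries and 207 to 267 CPM in rotenone libraries, which is only 1.13-fold lower with a gap of 0.040.

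The smallest fold change of all came with the narrowest gap. That gene had 96.9 to 108 CPM in DMSO libraries and 88.9 to 96.8 CPM in rotenone libraries, with a log2 fold change of -0.10 and a gap of 0.0011 log2 units. The nearest gene outside the set missed by 0.0004 log2 units, at 96.2 CPM in both its lowest DMSO and its highest rotenone library, and had a log2 fold change of -0.69. No break separated members from the genes just outside. A total of 58 members had a gap under 0.05, and 86 excluded genes overlapped by less than 0.05. The median gap was 0.13. A gap of at least 0.5 was found in 8 members and one of at least 1 in 2.

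**Figure D2:**
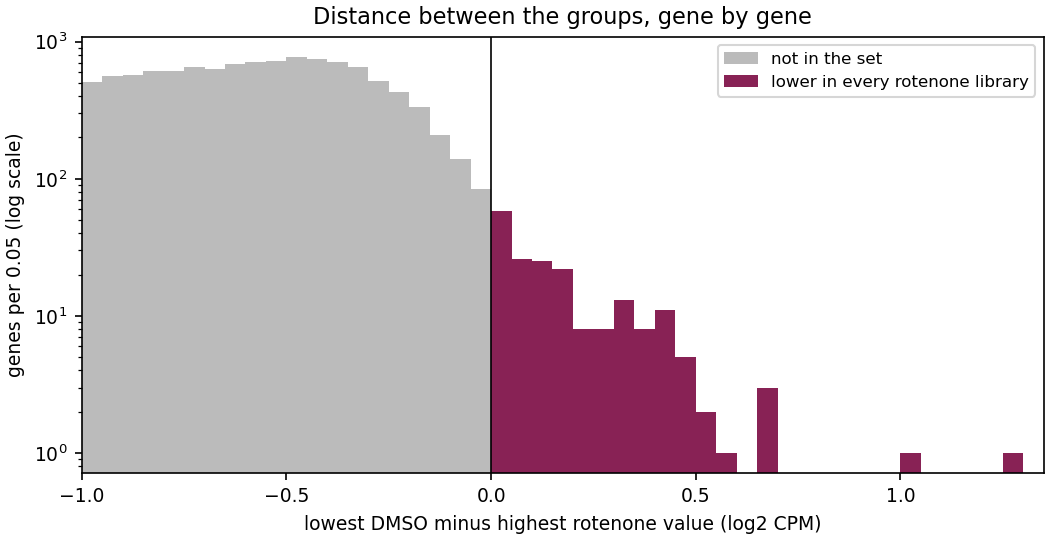
Histogram of the lowest DMSO value minus the highest rotenone value per tested gene, in log2 CPM (x axis, cropped at -1) against the number of genes per 0.05 on a log scale (y axis). Genes right of the line at 0 form the set; counts fall smoothly through the line, and only 2 genes lie beyond 1.

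Across all 18435 genes, edgeR's quasi-likelihood test called 0 genes (0%) at an adjusted p under 0.05, with a smallest adjusted p of 0.078, so none of the 192 members was called as lower by this test. The members' own adjusted p ran from 0.078 to 0.83 with a median of 0.30. At an adjusted p under 0.1, edgeR gave 20 lower genes (0.108% of those tested), and all 20 were members. Before adjustment, 724 genes (3.93%) were lower with an edgeR p under 0.05, of which 181 were members. DESeq2 called 167 lower genes (0.912% of the 18303 genes to which it gave an adjusted p) at an adjusted p under 0.05, and 128 of them were members, which is 66.7% of the set and 76.6% of those calls. Limma voom called 1 lower gene (0.00542%), Nfu_g_1_021435, with an adjusted p of 0.046. The rule and these tests read the same contrast, so their overlap is not further evidence.

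**Figure D3:**
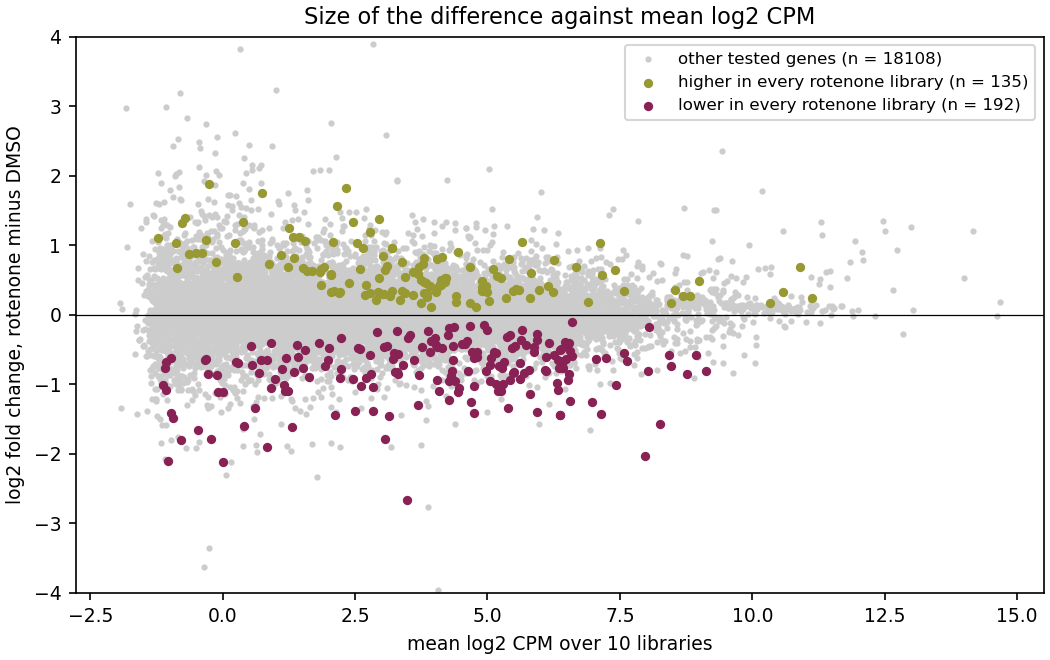
Each point is a tested gene, with the mean log2 CPM over 10 libraries on the x axis and the edgeR log2 fold change (rotenone minus DMSO) on the y axis; 28 genes beyond ±4 are not drawn. The 192 members lie between -2.66 and -0.10 and spread over most of the range of mean log2 CPM, up to 9.12.

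Members were found in every decile of expression level, with a larger share in the top 2 deciles. Levels between genes are compared as DMSO CPM per kilobase of gene. The rule also used the DMSO values, and members are higher in DMSO by that rule, which moves them up this scale. The median member stood at 7.57 CPM per kilobase in DMSO skin and 5.00 in rotenone skin, where the median tested gene stood at 4.90 in both. In the top decile of tested genes by DMSO level, 43 of 1844 genes (2.33%) were members, and in the next lower decile 28 (1.52%). In each of the 8 lower deciles the share was between 0.705% and 0.976%. By mean log2 CPM over both groups, without regard to length, 38 members (2.06%) were in the top decile and 25 (1.36%) in the next. The 8 lower deciles of that scale had 0.651% to 1.14%. The rule selects for a small spread within groups. The median within-group SD of tested genes was 0.523, 0.335, 0.280 and 0.303 log2 units in the quartiles from lowest to highest level. In the top decile by DMSO level it was 0.320, and in the 4 deciles below it 0.279 to 0.297. The part of this spread in the share of members was not tested. Of the 135 genes higher in every rotenone library, 16 were in the top decile and 9 in the next.

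Tested genes reached 11240 CPM per kilobase in DMSO skin. The highest level per kilobase among the members was 526 CPM per kilobase in DMSO skin, in a short gene of 876 bases. Its 5 DMSO libraries held 542, 419, 441, 391 and 512 CPM and its 5 rotenone libraries 272, 300, 308, 214 and 292 CPM. It was 1.66-fold lower in rotenone, the same as the median member. At the low end, 9 members had a DMSO mean under 1 CPM, and 19 had fewer than 10 reads in at least 1 library. In 2 members a library had 0 reads, and no member was at 0 throughout a group. For these scarce genes the fold change depends on counting error.

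Members that differed most between the groups also varied most between libraries of a group. The 48 members with the largest differences (log2 fold change -1.02 or lower) had a median within-group SD of 0.450 log2 units. The 48 with the smallest differences (-0.50 to -0.10) had 0.123, as the rule requires, since a small difference clears the boundary only when the libraries are tight. Median DMSO values were 15.8 CPM in the first of these quartiles and 22.9 CPM in the second, against 31.0 and 33.7 CPM in the quartiles between. Over all members the median within-group SD was 0.244, below the 0.353 of all tested genes.

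Gene length separated the members little from other genes. Their median recovered length was 3127 bases, with a range of 315 to 16179, and that of all tested genes was 2717 bases. By quartiles of tested genes from shortest to longest, 46, 42, 45 and 59 members were found, or 0.998%, 0.911%, 0.976% and 1.28% of the genes in each. Among genes with a mean of at least 500 counts, the 106 members had a median of 3602 bases and all 7579 genes one of 3695 bases. The 48 members with the smallest differences had a median of 4188 bases and the 48 with the largest 3038 bases.

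**Figure D4:**
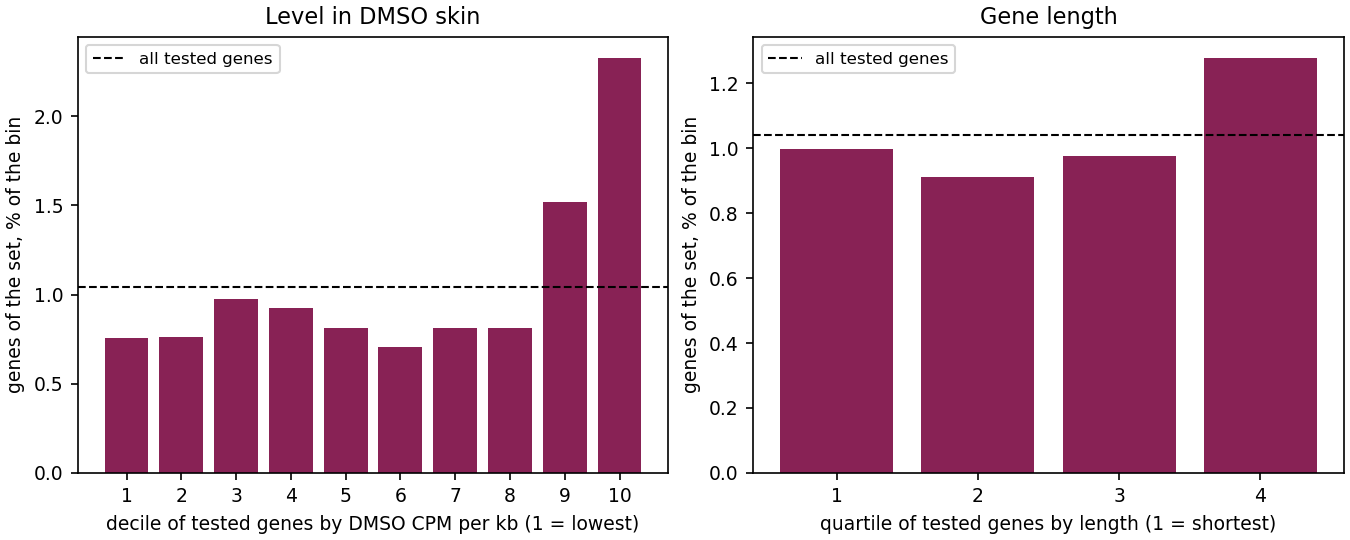
Bars give the members as a percentage of tested genes in each decile by DMSO CPM per kilobase (left) and each quartile by gene length (right); the dashed line is the share over all tested genes, 1.04%. The top 2 deciles by level stand at 1.52% and 2.33%, and the longest quartile at 1.28%.

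Libraries as a whole did not differ in the length of the genes they sampled beyond their spread. The mean log2 gene length weighted by reads was 11.46 ± 0.06 in DMSO and 11.40 ± 0.06 in rotenone libraries (SD, n = 5 each, exact permutation p = 0.17, two-sided, with 0.0079 the smallest value this design can reach). This measure covers all genes and was not used to choose the members. Values overlapped, from 2678 to 2985 bases in DMSO and from 2590 to 2835 bases in rotenone libraries after conversion from the log scale. Rotenone replicates 2 and 3, where the members' sums were lowest, also had the lowest weighted lengths of all 10 libraries, at 2590 and 2602 bases. The part of length in the members' values was not tested.

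Some libraries set the boundary of the rule far more often than others. Rotenone replicate 5 was the highest rotenone library in 80 of the 192 members, and replicate 1 in 47. On the DMSO side, replicates 2 and 4 were the lowest in 58 and 54 members. The median member in rotenone replicate 5 was 0.52 log2 units below its DMSO mean, and in replicate 2 it was 0.81 below. The other rotenone replicates lay between, at -0.65 in replicate 1, -0.77 in replicate 3 and -0.72 in replicate 4. The median tested gene in the same libraries deviated by -0.001 to 0.040. In rotenone replicate 5, 149 members (77.6%) were above their own group mean, against 73 (38.0%) in each of replicates 2 and 3. The counts of boundary libraries and of members above the group mean were not made over all tested genes. They may therefore describe the libraries as a whole and are not read as a trait of the set.

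Within groups the mean pairwise correlation was higher among members than over all tested genes. After each gene's group mean was removed, the mean pairwise Pearson correlation across the 10 libraries was 0.114 over the 18336 pairs of members. It was 0.000613 over all tested genes and 0.0132 over the 135 genes higher in every rotenone library. A correlation above 0.5 was found in 17.6% of member pairs and one below -0.5 in 6.36%. Among pairs of the 135 higher genes these shares were 10.4% and 7.93%. They were not computed over all tested genes, where positive and negative pairs can cancel in the mean. The means therefore do not compare how strong the co-variation was. The mean was 0.087 among DMSO libraries alone and 0.125 among rotenone libraries alone, each over 5 libraries. Among genes with many reads the same held as a description: the 75 members in the top quartile by mean log2 CPM had a mean of 0.159 where all 4609 genes of that quartile had 0.0164. These correlations share the same 10 libraries and their scaling, and are a description without a test. With library size as the only scaling the members' mean was 0.207 and that of all tested genes 0.0626. Without rotenone replicate 5 the members' mean was 0.079.

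The first axis of the members' within-group variation set rotenone replicates 2 and 3 against replicates 1, 4 and 5. This axis held 34.8% of that variation, and 143 of the 192 members had a weight of the same sign. The axis was oriented so that the weights summed to a positive value, so an excess of positive weights was partly set in advance. This count was not made for other genes on an axis of their own. Genes were not scaled to equal variance, so those that varied most, some of them scarce, weighed most. The largest weight, 0.306, belonged to a member with a DMSO mean of 1.02 CPM and 0 reads in rotenone replicate 2. Scores on it were -0.57 and -0.46 in rotenone replicates 2 and 3, and 0.42, 0.24 and 0.36 in rotenone replicates 1, 4 and 5. DMSO libraries ran from -0.15 to 0.22. In 56 members (29.2%) both replicates 2 and 3 were below all of replicates 1, 4 and 5, which was so for 3755 tested genes (20.4%) and for 15 of the 135 higher genes (11.1%). Of these 56 members, 38 were among the 48 with the highest weights on the axis. The following quartiles by weight held 15, 3 and 0, so most members did not have this order. Sorting by weight favours such a split.

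The quartile of members with the strongest weights on that axis, the genes that define it, was lowest in those libraries. In these 48 genes the median deviation from the DMSO mean was -1.56 log2 units in rotenone replicate 2 and -1.41 in replicate 3. In replicates 1, 4 and 5 it was -0.69, -0.86 and -0.61. The quartile at the other end of the axis had the reverse order, with -0.52 and -0.55 in replicates 2 and 3 and -0.79, -0.92 and -0.63 in replicates 1, 4 and 5. Both orders follow largely from sorting the genes by weight on this axis, and are descriptions.

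**Figure D5:**
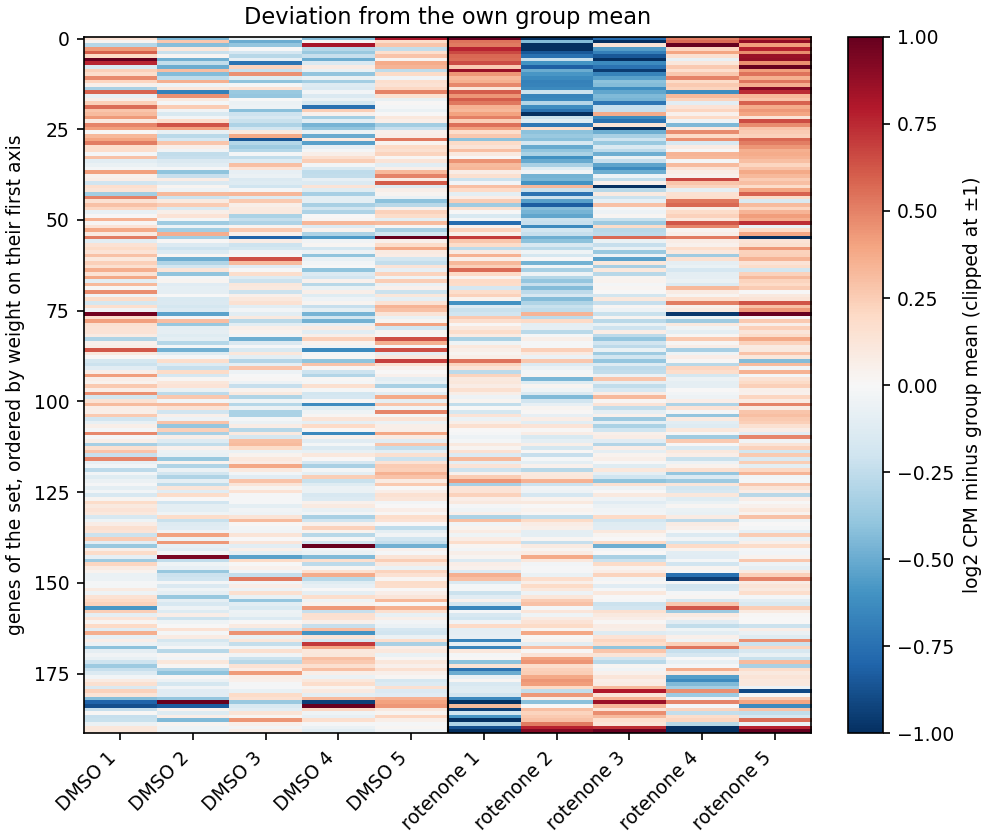
Colours give log2 CPM minus the gene's own group mean, clipped at ±1, for each member (rows, ordered by weight on the members' first axis) in each library (columns; the line parts DMSO from rotenone). The upper rows are below the group mean in rotenone replicates 2 and 3 and above it in replicates 1 and 5.

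The members' shared variation was set beside that of the rest of the skin transcriptome. Axes of within-group variation were computed from the 18243 tested genes outside the set. The first held 40.6% of their variation, with DMSO replicate 2 highest at 0.67, and members correlated with it at a median of -0.014, with 93 of 192 above 0. The second held 21.4%, with rotenone replicate 1 highest at 0.56 and rotenone replicate 2 lowest at -0.53. Members correlated with this second axis at a median of 0.33, with 143 of 192 (74.5%) above 0, beside a median of 0.003 and 50.1% over all tested genes. A correlation above 0.5 with the second axis was found in 70 members (36.5%), against 22.9% of tested genes. One below -0.5 was found in 17 members (8.85%), against 23.7% of tested genes. On this second axis members thus differed from tested genes in the balance of signs rather than in how often the correlation was strong. On the first axis the signs were alike, with 48.4% of members and 47.5% of tested genes above 0. Strong correlations with that first axis were rarer among members. One above 0.5 was found in 7.81% of members and 16% of tested genes, and one below -0.5 in 6.77% and 12.2%. These correlations rest on 10 libraries that share their scaling, and are a description.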

How the data were processed

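Illumina TruSeq libraries were made from total RNA, per the labels' protocols. The authors deposited raw read counts per gene and RPKM values for 26739 identifiers. Per the submitters' processing notes, featureCounts 1.4.6-p4, STAR 2.4.1d and bcl2fastq 1.8.4 were used. Genome build, annotation, strand setting and the handling of multi-mapping reads are not stated there, so genes that overlap or have a near-identical copy may share reads. Counts were used for all main values. The deposited RPKM served to recover gene lengths: in 4793 genes well covered throughout (500 counts or more, RPKM over 1, all libraries), the length implied by both tables had a median CV over libraries of 31.4% with each library's own total, and of 0.0019% with the 10 totals recycled down the rows and into the next column, which was then used.

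The filter was filterByExpr at its defaults (minimum count 10, groups of 5), which kept 99.9% of reads. Counts were scaled by TMM and tested with edgeR 4.0.16 (robust quasi-likelihood F test) in R 4.3.3, adjusted by Benjamini-Hochberg at 0.05. DESeq2 1.42.0 and limma 3.58.1 (voom) were alternatives, beside other scalings, filters, prior counts and each library left out. No 2 libraries agreed within sampling noise (lowest chi-square per degree of freedom 62.1 over 45 pairs). With no names, the gene and marker lists could not be used, and the rule named the member with the widest gap and the one with most reads; other members were picked after their values were seen. Members and lists were chosen with earlier results of these data known.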

Additional observations from a re-analysis of the deposited data

How the results depend on the processing

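The number of genes lower in every rotenone library depended on the scaling and on single libraries. It was 227 with RLE (relative log expression) factors and 186 with upper-quartile factors, with 192 and 161 of the members among them. Other filters gave 228 (at least 1 read) and 154 (a mean of at least 50 counts). The count moved further in other settings. It was 364 with library size as the only scaling, which took the log2 fold change of the median tested gene from 0.03 to -0.11, and 182 of the 192 members were among them. It was 110 with the deposited RPKM, whose library totals were misassigned, with 39 members among them. Leaving out a library, which leaves fewer values to separate, gave 233 to 418 genes. It exceeded 1.5 times the full count without DMSO replicates 2 and 4 (418 and 335) and without rotenone replicates 1, 2 and 5 (345, 326 and 383). Prior counts of 0.5 and 5 gave the same 192 genes. Of the members, 181 stayed in the set in all 10 sets of 9 libraries. Under the 3 other scalings as well, 156 did so. The other 36 had a median gap of 0.017 log2 units. A gene that separates all 10 libraries also separates any 9 of them at fixed scaling and filter. Retention when a library is omitted was thus largely set by the rule and is no sign of stability. The count of 0 edgeR calls, in either direction, became 18 with library-size scaling, 225 with DESeq2 (167 of them lower) and 1 with limma voom. It stayed 0 with the other scalings and filters and with each library left out. Genes in either direction with an unadjusted p under 0.05 numbered 1798 with library-size scaling, 1697 with DESeq2 and 1373 with limma voom. In edgeR with RLE and upper-quartile factors they numbered 1418 and 1354. The 724 given above for the main fit counted lower genes only. The median log2 fold change of the members was -0.87 with library-size scaling and between -0.78 and -0.72 when a library was omitted. Its sign was set by the rule in each case. The mean pairwise correlation was 0.173 with upper-quartile factors, 0.207 with library size alone and 0.087 in DMSO libraries alone, and between 0.079 and 0.128 when a library was omitted. The median length was 3602 bases among members with a mean of at least 500 counts. The difference in read-weighted length kept its direction in all 12 alternatives, and its exact permutation p ran from 0.12 to 0.37. Causes of these moves were not tested. No paired analysis was possible because the labels pair no libraries. Reads limit the scarce members: 46 had fewer than 50 counts in a library.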
